A study of Mus musculus with 16 samples.

Results

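The replication-dependent histone cluster genes make the core histones H2A, H2B, H3 and H4 and the linker histone H1. They were taken as the protein-coding genes of the deposited RNA-seq table whose symbol starts with Hist1h, Hist2h, Hist3h or Hist4h, which gave 64 of the 21678 protein-coding genes among 43432 gene entries. The 64 comprised 6 H1, 18 H2A, 15 H2B, 12 H3 and 13 H4 genes. Of these, 52 belonged to the Hist1 cluster on chromosome 13, 9 to Hist2 on chromosome 3, 2 to Hist3 on chromosome 11 and 1 was Hist4h4 on chromosome 6. The series, a search for targets of miR-221-3p and miR-222-3p, used B cells from the spleen of C57B6L/J mice. All groups had been cultured for 4 days with aCD40 (an antibody to CD40, 500 ng/ml), IL4 (25 ng/ml) and IL21 (10 ng/ml), which make B cells divide. The groups were labelled KO and Flox, with 4 RNA-seq and 4 Ago2 HITS-CLIP libraries each, 16 in all. The sources used here do not name the Cre that removed the floxed locus, the age of the mice, or whether the libraries of a group came from separate mice, so p-values measure only the spread between these samples.

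Replication-dependent histone genes are transcribed in S phase, when new DNA has to be packed into nucleosomes. They have no introns, and their mRNAs end in a stem-loop instead of a poly(A) tail: the stem-loop binding protein SLBP and the U7 snRNP guide the cut at the 3′ end, and the mRNA is destroyed when DNA synthesis stops. Some of these genes can also yield a longer polyadenylated mRNA, chiefly in cells that have left the cell cycle. How RNA was selected for the RNA-seq libraries beyond the label of total RNA is not given in the sources used here, which matters for mRNAs without a tail.

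Library depth was 22947689 to 39236132 reads in KO and 25421025 to 39616596 in Flox. The spans of Mir221 and Mir222 could not check the labels, since Mir222 had no read in any library and Mir221 had none in KO and 0, 0, 3 and 1 in Flox 1 to 4. Libraries KO 1 and KO 3 stood apart from the others: on principal component 1 of the genes tested, which carried 33.5% of the variance, they lay at -38.0 and -35.6, KO 2 and KO 4 at -15.3 and 7.5, and the Flox libraries between 14.5 and 26.5. Mitochondrial mRNA took 2.93, 2.07, 4.05 and 1.65% of normalized counts in KO 1 to 4 and 1.68 to 1.9% in Flox. The B cell markers were read deeply, with Pax5, the transcription factor of B cell identity, at a KO level of 2704 ± 225 and a Flox level of 1826 ± 253 normalized counts, and Cd22, a B cell surface receptor, at 15531 ± 1691 and 12922 ± 790 (SD, n = 4 each). The sums in KO and Flox were 5.2 to 30.8 and 9.3 to 25.8 for 6 T cell markers, 0 to 11.6 and 0 to 9.3 for 3 NK cell markers, 70.5 to 102.9 and 47 to 92.6 for 5 myeloid markers and 6.9 to 47.6 and 32.3 to 63 for 5 red cell markers. Of 4 stromal markers, which summed to 718 to 849 and 504 to 658, nearly all counts were of the endothelial gene Pecam1.

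Promoters of 3 nearby genes are shown first, because they include the histone gene that differed most between the genotypes and 2 H2B genes near it on chromosome 13 with a negative fold change at an unadjusted p under 0.05. The H2A gene Hist1h2ag, which lies between Hist1h4i and Hist1h2bj, is not shown and had a log2 fold change of 0.01. Hist1h4i (H4c9 in RefSeq) encodes histone H4, and Hist1h2bj (H2bc11) and Hist1h2bk (H2bc12) encode H2B. Each line gives the 250 bases before the RefSeq transcription start (GRCm38.p6), 5′ to 3′ on the gene's strand, at chr13:22041363-22041612 (minus strand), chr13:22042948-22043197 (plus strand) and chr13:22035571-22035820 (plus strand). Capitals mark matches to the TATA box, spelled TATAAA, matches to the CCAAT box, spelled by its name, and matches to the octamer, spelled ATTTGCAT. Both strands were searched, and a match on the other strand appears as its reverse complement.
Hist1h4i: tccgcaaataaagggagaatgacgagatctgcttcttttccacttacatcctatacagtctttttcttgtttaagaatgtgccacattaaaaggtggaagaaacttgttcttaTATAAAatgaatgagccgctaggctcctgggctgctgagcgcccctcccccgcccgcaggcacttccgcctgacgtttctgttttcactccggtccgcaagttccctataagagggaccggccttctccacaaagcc
Hist1h2bj: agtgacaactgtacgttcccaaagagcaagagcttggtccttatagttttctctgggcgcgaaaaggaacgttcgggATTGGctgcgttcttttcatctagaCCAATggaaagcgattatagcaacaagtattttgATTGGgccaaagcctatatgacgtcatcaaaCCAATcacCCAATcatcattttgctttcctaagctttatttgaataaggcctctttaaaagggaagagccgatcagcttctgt
Hist1h2bk: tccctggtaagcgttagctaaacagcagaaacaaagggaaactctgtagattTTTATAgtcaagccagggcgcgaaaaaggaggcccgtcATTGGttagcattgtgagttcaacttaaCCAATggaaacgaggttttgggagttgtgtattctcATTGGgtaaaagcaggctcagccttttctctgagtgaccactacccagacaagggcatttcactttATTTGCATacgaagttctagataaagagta
The octamer ATTTGCAT is the site through which Oct factors act on H2B promoters, and it stood 30 bases before the start of Hist1h2bk. The Hist1h2bj window held 5 CCAAT matches and no octamer match, and the Hist1h4i window held only a TATAAA, 137 bases before its start. RefSeq gave windows of 300 bases (250 before and 50 after the start) for 59 of the 64 genes, without Hist1h2bc and Hist1h3a. An octamer was present in the windows of 7 of 18 H2A and 5 of 13 H2B genes. It was in those of 0 of 6 H1, 0 of 10 H3 and 0 of 12 H4 genes, against 1.97% of all 27025 genes with a window. H2A and H2B genes often lie head to head on one shared promoter, so these windows overlap: 12 such pairs had starts 176 to 306 nt apart. A CCAAT was present for every H1, H2A, H2B and H3 gene with a window but for 3 of 12 H4 genes (25%), with 41.1% of all genes. TATAAA was present for 35 of 59 (59.3%), against 15.7% of all genes with a window. These matches are letters in a window and were not measured as sites.

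Little RNA of these genes was read. Summed over the 64 genes, they made 38.9 ± 7.41 CPM in KO and 52.7 ± 3.68 in Flox (SD, n = 4 each). The level of a library is given below in normalized counts, the authors' read counts divided by a size factor per library. Only 26 of the 64 (40.6%) reached a mean of 10 normalized counts over the 8 libraries, against 53.5% of all protein-coding genes. The median of the 26 was 22.2, and that of all protein-coding genes past the same limit was 1027. The gene with the highest mean, Hist1h1c at 242, lay below 76.3% of those genes.

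A few genes held most of this RNA. Hist1h1c, Hist1h4i, Hist2h2be and Hist1h2bc made up 56.8% of the summed level, and the 10 highest made up 74.0%. Their gene models are long. The span in the table runs 836 nt past the RefSeq 3′ end for Hist1h1c, 324 nt for Hist1h4i and 428 nt for Hist1h2bc, and the RefSeq model of Hist2h2be is itself 2667 nt long. In a grouping made after the values were seen, the 26 genes whose span ran over 100 nt past the RefSeq end, or whose RefSeq model exceeded 1000 nt, held 77.7% of the summed level, and the other 38 genes held 22.3%. The highest mean among these 38 was 34.5, for Hist1h2bj. On the scale per kb of span the median was 4.16 in the 26 genes and 8.82 in the 38, so the order of the medians turned with length taken into account. The files give 1 value per gene, so reads before and after the stem-loop could not be told apart.

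At the other end, 10 genes had 0 reads throughout. For counting error alone, a 0 still allows up to 3 reads in a library. They were Hist1h1t, the H1 of the testis, the H2A genes Hist1h2aa, Hist1h2ao, Hist1h2ap, Hist2h2aa1 and Hist2h2aa2, the H2B genes Hist1h2bq and Hist1h2br, Hist1h4n and Hist2h3c1. The remaining untested genes had reads but a mean of at most 7.86 (Hist1h2ae). Histone genes of a type have nearly the same coding sequence, and how reads that fit several copies were counted is not given in the sources used here. A value of 0, and a low value in general, is therefore uncertain for genes with a near copy. Hist2h2aa1 and Hist2h3c1 also share strand and position with another annotated transcript (Gm20634), and Hist2h2aa2 lies opposite Gm20632.

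The 2 genes of a head-to-head pair could differ widely in level. Hist1h2bc was at 109 and 161 normalized counts in KO and Flox, while its H2A partner Hist1h2ac, with its start 251 nt away, was at 2.08 and 2.55. Hist2h2be was at 170 and 211, and its partner Hist2h2ac at 6.45 and 4.08. Hist1h2bk was at 14.8 and 29.7 and its partner Hist1h2ah at 1.23 and 3.85, whereas Hist1h2ag (18.1 and 16.3) and Hist1h2bj (25.8 and 43.2) were closer to each other. These are counts per gene and not per length, and the spans of Hist1h2bc (8710 nt) and Hist2h2be (2620 nt) are long.

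The main question for these genes was whether their RNA differed between KO and Flox B cells. Summed over all 64, the 4 KO libraries had levels of 1252, 1416, 911 and 1093 normalized counts and the 4 Flox libraries had 1509, 1521, 1469 and 1714, each in the order of replicate number. Every KO library lay below every Flox library, the lowest being KO 3. The ratio of the means was 0.752. In bulk RNA, fewer cells in S phase and less histone RNA per cell cannot be told apart. KO 3 also had the highest share of mitochondrial mRNA and KO 1 the next highest, and the part of this in the histone sums was not tested. The difference rested in part on 1 gene: without Hist1h4i the sums were 1062 ± 172 in KO and 1249 ± 108 in Flox (SD, n = 4 each), and the groups overlapped.

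By type, only the H4 sum did not overlap between the groups. It was 254.8, 256.7, 157.3 and 179.1 in the KO libraries and 419.2, 432.8, 319.7 and 426.8 in the Flox libraries. Without Hist1h4i the other 12 H4 genes summed to 106 ± 18.6 in KO and 95.1 ± 17.3 in Flox (SD, n = 4 each), with overlap. H2B summed to 402 ± 61.8 in KO and 520 ± 61.6 in Flox, and KO 2 (487.6) reached into the Flox range. H1 was at 321 ± 71.4 and 369 ± 21.4, H3 at 99.3 ± 21.2 and 127 ± 35.1, and H2A at 135 ± 40.0 and 138 ± 12.3, all with overlap. KO 3 had the lowest sum of all 8 libraries in every type. Per kb of span, the order of the types in Flox was H4 (549 ± 75.8), H2B (351 ± 55.8), H1 (252 ± 19.7), H3 (199 ± 60.4) and H2A (193 ± 14.8), the last pair lying within their spread. In KO, H4 (287 ± 66.5) and H2B (269 ± 36.2) lay within their spread of each other.

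**Figure D1:**
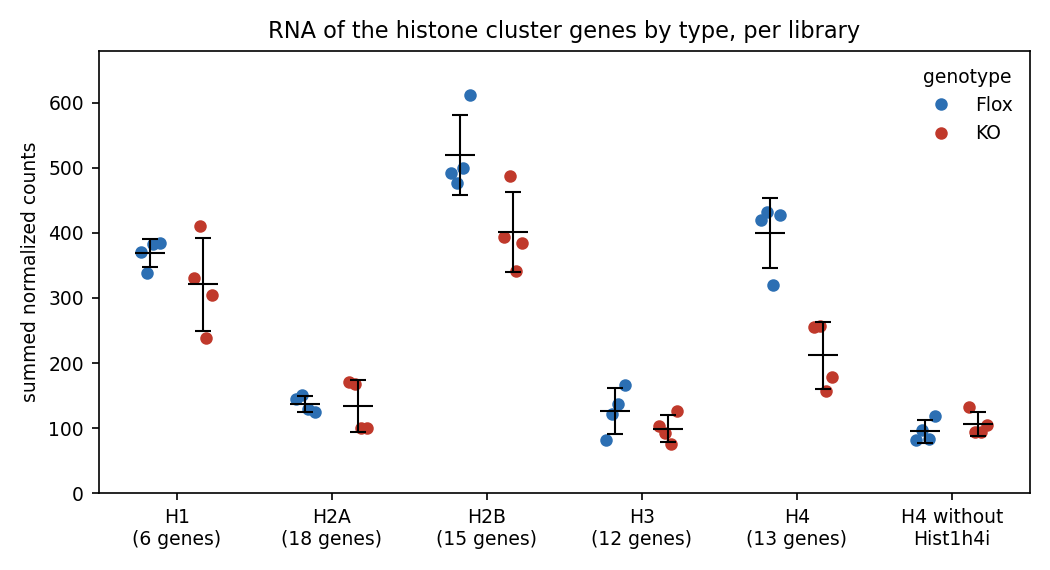
Summed normalized counts of the histone genes of each type (vertical axis) in each library, with the mean and SD of 4 libraries per genotype as horizontal and vertical bars. The H4 sums of KO (157.3 to 256.7) lie below those of Flox (319.7 to 432.8), and the groups overlap in the other types and in H4 once Hist1h4i is left out.

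The 26 genes with a mean of at least 10 were tested with limma-trend on log2 of the normalized count plus 1, fitted across 13091 genes with Benjamini-Hochberg adjustment. No histone gene passed an adjusted p of 0.05, and 9 of 13091 genes did (0.0687%). Of the 26, 17 had a negative log2 fold change (65.4%, against 51.5% of all genes tested), and their median was -0.22 where that of all genes was -0.01. At an unadjusted p under 0.05, 5 of the 26 were lower in KO (19.2%, against 7.39% of all genes) and 0 were higher (7.74% of all genes). The DESeq2 alternative called 1 of the genes (213 of 12072 genes, 1.76%), limma-voom called 1 and edgeR 0. In 1 gene every KO library lay below every Flox library (3.79% of all genes), and in 0 genes every KO library lay above (4.18%). The median moved with single libraries and settings: it was -0.01 without KO 3, -0.30 without KO 2, -0.08 without KO 1 and KO 3 together, -0.02 once gene span and GC content were corrected for, and -0.03 with edgeR on the recovered reads.

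**Figure D2:**
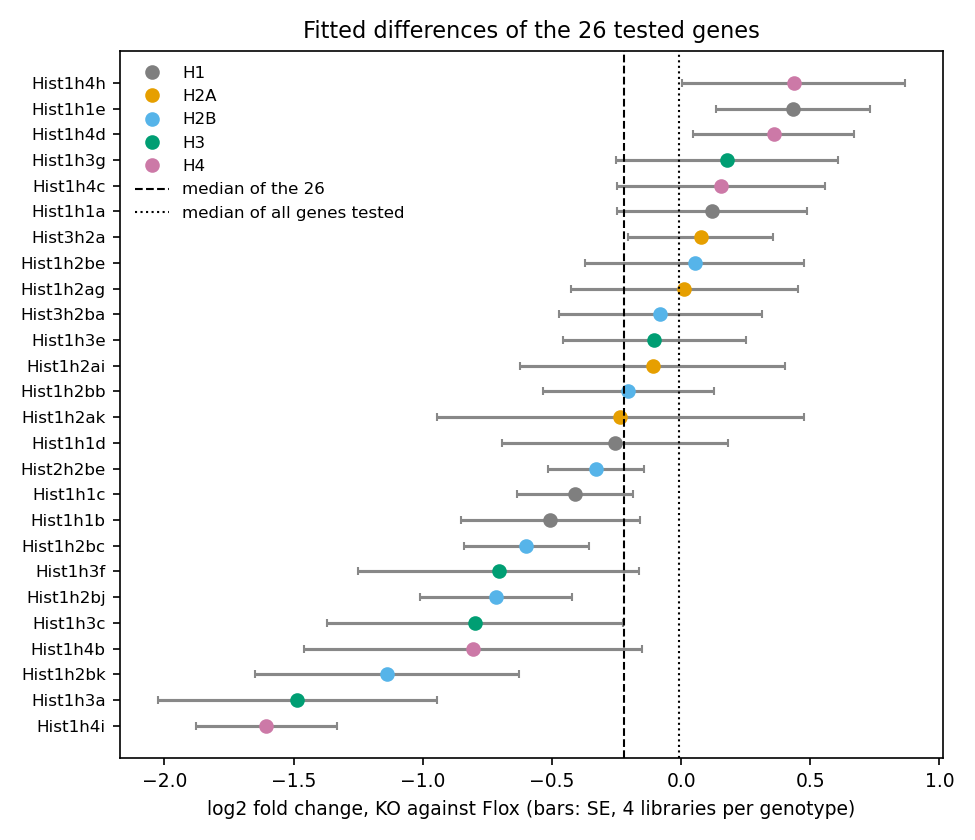
Log2 fold change, KO against Flox, of the 26 tested histone genes (horizontal axis; points coloured by type, bars the standard error of the limma fit, 4 libraries per genotype). The values run from -1.60 for Hist1h4i to 0.44 for Hist1h4h, with 17 below 0; the dashed line is the median of the 26 and the dotted line that of all genes tested.

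Hist1h4i (ENSMUSG00000060639, GRCm38 chromosome 13, 22040636 to 22041362, minus strand), one of the many genes for the same H4 protein, differed most. It was at 121.6, 163.0, 63.6 and 74.3 normalized counts in KO 1 to 4 and at 338.1, 335.9, 236.2 and 307.9 in Flox 1 to 4. All KO libraries lay below all Flox libraries, with KO 1 and KO 2 nearer to them than KO 3 and KO 4. The fitted log2 fold change was -1.60 with an SE of 0.27 and an adjusted p of 0.110 in limma, which misses the threshold. The authors' deposited table gives a log2 fold change of -1.54 for this gene and no p-value. The call depended on the test: the adjusted p was 1.07e-05 with DESeq2 (213 genes called, 1.76%), 0.0478 with limma-voom (10 of 13091 genes called, 0.0764%), 0.126 with edgeR, 0.022 with the replicate number as a block in limma (11 of 13091 genes called, 0.084%) and 0.0136 with limma without KO 2, and it ran from 1.07e-05 to 0.507 over all alternatives. Its log2 fold change stayed between -1.85 and -1.40 in all of them, the highest without KO 3 and the lowest without KO 2.

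Hist1h4i lies between H2A and H2B genes. Its neighbour Hist1h2bj (chromosome 13, 22043214 to 22043676, plus strand) was at 28.5, 18.3, 23.1 and 33.3 in KO and 27.8, 46.2, 45.2 and 53.7 in Flox, where Flox 1 fell within the KO range. Its log2 fold change was -0.72 (SE 0.30; limma adjusted p = 0.303). Hist1h2bk (22035870 to 22036345, plus strand) was at 13.7, 10.4, 4.6 and 30.3 in KO and 17.3, 23.6, 31.3 and 46.5 in Flox. KO 4 lay inside the Flox range and the other KO libraries below it, and the log2 fold change was -1.14 (SE 0.51; limma adjusted p = 0.326; -1.56 without KO 4 and -0.73 without KO 3). The H2A gene Hist1h2ag, which lies head to head with Hist1h2bj, was at 12.7, 36.5, 11.6 and 11.4 in KO and 10.5, 14.8, 16.2 and 23.8 in Flox. KO 2 was the highest of these 8 values, and the log2 fold change of 0.01 (SE 0.44) turned to -0.37 without KO 2.

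Of the 7 tested H2B genes 6 had a negative log2 fold change, against 51.5% of all genes tested. At an unadjusted p under 0.05, 3 of the 7 were lower, against 7.39% of all genes, and 0 passed the adjusted threshold. The median log2 fold change of the 7 was -0.33. Hist1h2bc (23684199 to 23692908, plus strand) was at 133.2, 146.1, 77.5 and 78.8 in KO and 148.8, 146.6, 137.8 and 210.8 in Flox. KO 3 and KO 4 were lowest, KO 1 lay just below the Flox range and KO 2 inside it, and Flox 4 was highest. Its log2 fold change was -0.60 (SE 0.24; limma adjusted p = 0.298), and the authors' deposited table gives -0.57 with an FDR of 0.229, the lowest of the 14 tested histone genes that have one there. At an FDR under 0.05 that table calls 0 of these 14, and 191 of all 12118 genes with an FDR (1.58%). Hist2h2be (chromosome 3, 96221119 to 96223738, plus strand), an H2B gene known for a polyadenylated mRNA in resting cells, was at 122.6, 225.6, 164.2 and 169.0 in KO and 215.6, 176.3, 228.1 and 222.1 in Flox. The groups overlapped through KO 2 alone, and the difference on the log2 scale, -0.33 (SE 0.19; limma adjusted p = 0.402), was -0.10 without KO 1 and KO 3 together and -0.18 without KO 1. Hist3h2ba, on chromosome 11, was at 41.2, 43.0, 11.6 and 31.1 in KO and 32.3, 34.9, 24.3 and 30.0 in Flox, and 1 library, KO 3, set the sign of its log2 fold change of -0.08 (SE 0.39; 0.33 without KO 3; 0.06 with edgeR and with DESeq2). Hist1h2bb (9.2 to 16.2 over the 8 libraries) and Hist1h2be (10.4 to 39.1) were at -0.20 and 0.05. Without KO 3 Hist1h2bb was at -0.08, and Hist1h2be turned to -0.24 without KO 1 or without Flox 3 and to -0.38 without KO 1 and KO 3 together. Hist1h2be has a span of 37455 nt that overlaps Hist1h1e on the same strand, so its reads are uncertain.

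Of the 5 tested H3 genes 4 were negative (51.5% of all genes tested), with a median of -0.71. Hist1h3a (chromosome 13, 23761853 to 23762386, minus strand) was at 3.2, 5.2, 9.2 and 24.3 in KO and 15, 23.6, 28.9 and 34.1 in Flox. KO 4 lay within the Flox range and the other 3 KO libraries below it. Its log2 fold change was -1.49 (SE 0.54; limma adjusted p = 0.271), with -1.98 without KO 4 and -1.17 with edgeR. Hist1h3c was at 16.9, 31.3, 3.5 and 18.9 in KO and 14.3, 21.8, 30.1 and 42.4 in Flox, a log2 fold change of -0.80 (SE 0.57). KO 3 had the lowest value, and without it the log2 fold change was -0.21 (-0.05 without KO 1 and KO 3 together). Hist1h3e was at 13.7, 26.1, 18.5 and 37.9 in KO and 19.5, 21.8, 24.3 and 33.1 in Flox, with full overlap and a fitted difference of -0.10 on the log2 scale (SE 0.35; 0.12 without KO 1, 0.04 without Flox 4, 0.37 without KO 1 and KO 3 together and 0.06 with span and GC corrected). Hist1h3g, the positive one, was at 20.1, 13.0, 5.8 and 17.4 and at 12.8, 8.7, 13.9 and 10.3, with a fold change on the log2 scale of 0.18 (SE 0.43; -0.02 without KO 1). Hist1h3f was at -0.71 (SE 0.55), with -0.27 without KO 2, -1.03 without KO 3 and -1.60 without KO 1 and KO 3 together.

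The linker histones were led by Hist1h1c (chromosome 13, 23738808 to 23740367, plus strand), the H1 gene known to be expressed outside S phase as well. It was at 173.3, 332.5, 141.1 and 208.4 in KO and 289.3, 247.8, 266.3 and 277.9 in Flox. KO 2 was the highest of all 8 libraries and the other 3 KO libraries were the lowest. The log2 fold change was -0.41 (SE 0.22, limma adjusted p = 0.391). It was -0.24 without KO 3, -0.65 without KO 2 and -0.04 without KO 1 and KO 3 together. Hist1h1e was at 85.6, 36.5, 47.4 and 37.9 in KO and 30.1, 41.0, 41.7 and 32.0 in Flox, with KO 1 highest. The difference on the log2 scale, 0.43 (SE 0.30; limma adjusted p = 0.482), was 0.17 without KO 1 and 0.05 without KO 1 and KO 3 together. Hist1h1b was at 13.7, 11.7, 27.7 and 21.2 in KO and 18.8, 23.6, 30.1 and 31.0 in Flox (log2 fold change -0.51, SE 0.35; -0.32 without KO 2). Hist1h1a was at 19.0, 18.3, 12.7 and 21.2 and at 11.3, 11.3, 19.7 and 25.8 (0.12, SE 0.37; -0.04 without Flox 1 or without Flox 2). Both pairs of groups overlapped, as did Hist1h1d (-0.26, SE 0.44; -0.01 without KO 3 and -0.67 without KO 1).

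Among the H4 genes other than Hist1h4i the differences ran both ways. Hist1h4d was at 41.2, 40.4, 43.9 and 41.7 in KO and 26.3, 38.4, 19.7 and 54.8 in Flox. The KO values lay close together inside a wide Flox range, and the log2 fold change was 0.36 (SE 0.31; limma adjusted p = 0.575; 0.13 without Flox 3 and 0.60 without Flox 4). Hist1h4h was at 23.3, 10.4, 6.9 and 15.9 in KO and 7.5, 10.5, 8.1 and 11.4 in Flox, a log2 fold change of 0.44 (SE 0.43; 0.17 without KO 1). Hist1h4b was at 5.3, 15.6, 1.2 and 20.5 in KO and 18.0, 12.2, 12.7 and 12.4 in Flox. The KO values spanned the Flox values on both sides, and the log2 fold change of -0.80 (SE 0.65) was -0.16 without KO 3, -1.26 without KO 4 and 0.37 without KO 1 and KO 3 together. Hist1h4c was at 0.15 (SE 0.40), and its sign turned without KO 1 (-0.09), without Flox 1 (-0.05) and without KO 1 and KO 3 together (-0.27). Hist4h4, which lies alone on chromosome 6 and was below the limit for testing, was at means of 7.15 in KO and 7.32 in Flox.

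The 4 tested H2A genes had a median of -0.05, with 2 positive and 2 negative. Hist3h2a (chromosome 11, 58954685 to 58956830, plus strand), which is known to give a polyadenylated mRNA, was the most read at 81.4, 62.6, 62.4 and 44.0 in KO and 85.7, 68.9, 44.0 and 43.4 in Flox. The ranges nearly coincided, with a log2 fold change of 0.08 (SE 0.28) that was -0.14 without KO 1 and KO 3 together and -0.06 without KO 1 or without Flox 4; it lies inside the span of Trim17, which had almost no reads. Hist1h2ai was at 18.0, 26.1, 4.6 and 10.6 in KO and 12.8, 20.9, 15.1 and 8.3 in Flox (-0.11, SE 0.51; 0.32 without KO 3). Hist1h2ak was at 31.7, 13.0, 1.2 and 7.6 and at 7.5, 13.1, 13.9 and 8.3 (-0.23, SE 0.71; 0.48 without KO 3). KO 3 was the lowest of the 8 libraries in both genes.

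**Figure D3:**
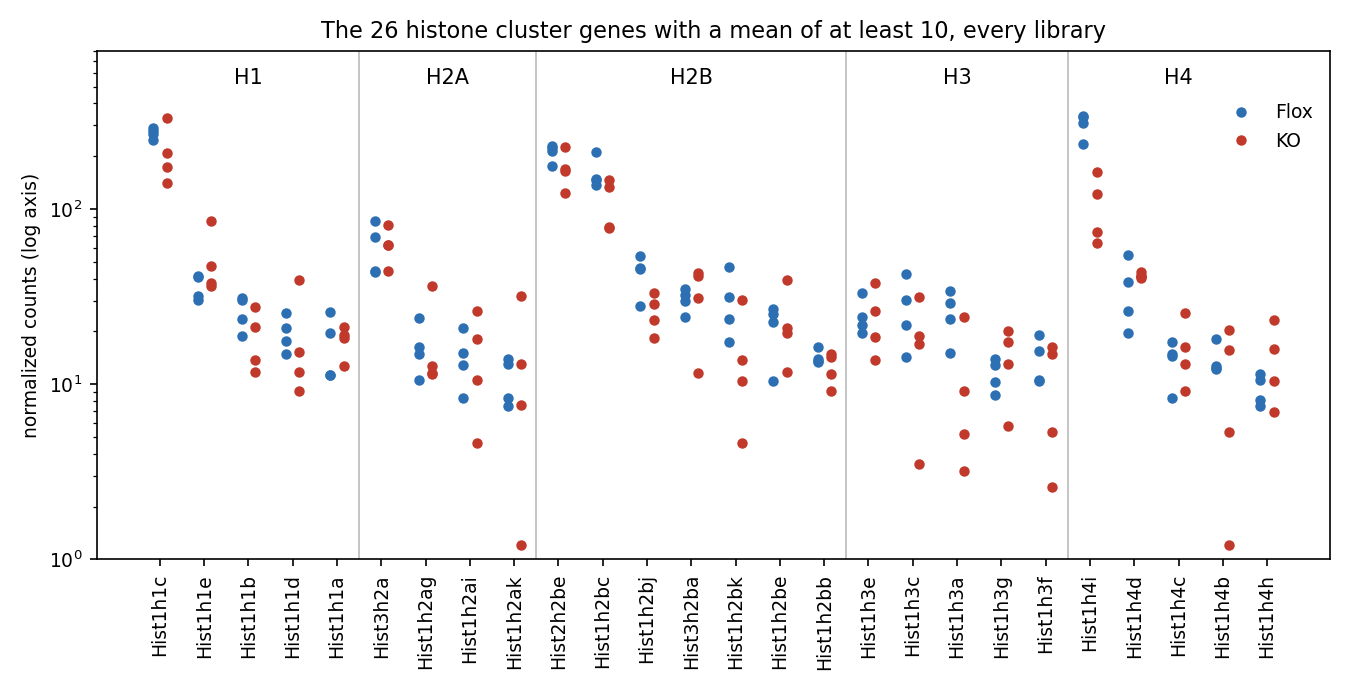
Normalized counts (logarithmic vertical axis) of the 26 tested histone genes in each of 4 Flox and 4 KO libraries, ordered by type and level. Hist1h4i has all its KO points (63.6 to 163.0) below its Flox points (236.2 to 338.1), and the points overlap in the other 25 genes.

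The genes that act on histone mRNA differed widely in level, and 0 of them passed the test. Of 31 genes for 3′ end processing, turnover and transcription of histone mRNA, 31 were tested, 20 positive and 11 negative, with a median of 0.12. At an unadjusted p under 0.05, 5 of the 31 were higher, against 7.74% of all genes tested, and 4 were lower, against 7.39%. Without KO 1 and KO 3 together 0 were higher and 0 lower. Slbp, the stem-loop binding protein, was at 3699 ± 268 in KO and 3572 ± 283 in Flox (log2 fold change 0.05, SE 0.09), and Npat, the coactivator of histone genes at the G1 to S transition, at 2446 ± 508 and 2064 ± 182 (0.23, SE 0.13). The U7 snRNP protein Lsm10 was at 483 ± 67.4 in KO and 589 ± 67.5 in Flox (-0.29, SE 0.13), and Lsm11 at 655 ± 132 and 772 ± 23.9 (-0.26, SE 0.14). The Sm proteins Snrpf and Snrpb had log2 fold changes of -0.54 (SE 0.16) and -0.47 (SE 0.16). Pou2af1, the B cell coactivator of Oct factors on octamer promoters, was at 68359 ± 2626 in KO and 57678 ± 2822 in Flox. Its log2 fold change was 0.25 (SE 0.09, limma adjusted p = 0.267). All KO libraries lay above all Flox libraries for this gene, as they did for 4.18% of all genes tested. Smg1, a kinase of RNA decay, was at 0.37 (SE 0.11).

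Genes of histone variants, which are not among the 64, were read far more. The 12 genes of the list summed to 29557 to 47901 normalized counts in KO and 44408 to 46421 in Flox. Relative to the 64 cluster genes this was 34.7 ± 2.28 times their sum in KO and 29.4 ± 1.65 times in Flox (SD, n = 4 each), a comparison of counts that does not take length into account. Of 10 tested, 9 were negative (51.5% of all genes tested), with a median of -0.19, 2 lower at an unadjusted p under 0.05 (7.39% of all genes) and 0 called. KO 3, with the highest share of mitochondrial mRNA, was the lowest library in Cenpa, H1f0, H2afz, H3f3a, H3f3b and H2afx. Without KO 3, 6 of 10 were negative, with a median of -0.04. With all libraries in, Cenpa, the H3 of centromeres, was at -0.45 (SE 0.16). The linker histone H1f0 was at -0.25 (SE 0.11) and H2afz, which encodes H2A.Z, at -0.27 (SE 0.16). Among 22 histone chaperones, 12 were positive and 10 negative, with a median of 0.02 and 0 called. At an unadjusted p under 0.05, 2 of the 22 were lower, against 7.39% of all genes, and 0 were higher, against 7.74%. Without KO 3, 0 were lower. Hira, which deposits H3.3, was at -0.38 (SE 0.16), Rbbp4 at -0.20 (SE 0.09) and Ubn1 at 0.17 (SE 0.09). Among 15 S phase genes, 11 were positive and 4 negative, with a median of 0.06, 0 called and 0 at an unadjusted p under 0.05. Tyms, which makes thymidylate, was at -0.24 (SE 0.14), and the helicase subunits Mcm5 and Mcm7 at 0.14 (SE 0.09) and 0.12 (SE 0.08).

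Ago2 HITS-CLIP sequences RNA fragments crosslinked to Ago2, the protein that carries miRNAs. The deposited dCLIP output divides the genome into bins of 5 nt, and the authors' summary gives regions of 1 hidden state, each with a score. Both pool the 4 libraries of each condition. There is thus no error between libraries, and since the files do not name the conditions, no difference below has a direction by genotype. Every one of the 64 histone genes had at least 1 region on its strand, against 60.3% of all protein-coding genes. There were 525 regions, with a median of 7 per gene. A region with a score of at least 5 was present in 62 of 64 (96.9%, against 40.7%), the exceptions being Hist1h1t and Hist2h2be. Bins covered at least 50% of the span in 51 genes (79.7%), against 3.34% of all protein-coding genes. Among genes with a span of up to 1000 nt, this held for 44 of 46 histone genes (95.7%) and 49 of 778 other protein-coding genes (6.30%). That last share depended on RNA level. Among the other protein-coding genes of that span it was 25 of 50 genes (50%) at a mean of at least 10 in RNA-seq, and 3.30% below that mean. Regions on the opposite strand were few, 14 in 5 genes.

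Ago2 regions were also found on genes without RNA-seq reads. The 10 genes with 0 RNA-seq reads all had Ago2 regions, against 19.3% of the other protein-coding genes with 0 reads, and the 38 genes with a mean under 10 all had them, against 28.0% of the other genes at that level. Across the 64 genes, Spearman's rho between RNA per kb and the covered share of the span was 0.233 (Pearson's r 0.281), and between RNA per kb and the highest score it was 0.0508 (Pearson's r 0.11). These are descriptions over genes that share libraries, and near copies can share CLIP reads as well as RNA-seq reads. Hist2h2be, the third by normalized counts and at 72.7 per kb, was covered over 11.6% of its span with a highest score of 2.1. Hist1h4i, at 282 the highest per kb, was covered over 97.9% with a highest score of 20.8. Hist1h3i had the highest score of all, 253.1, at a mean of 3.39 normalized counts in RNA-seq.

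**Figure D4:**
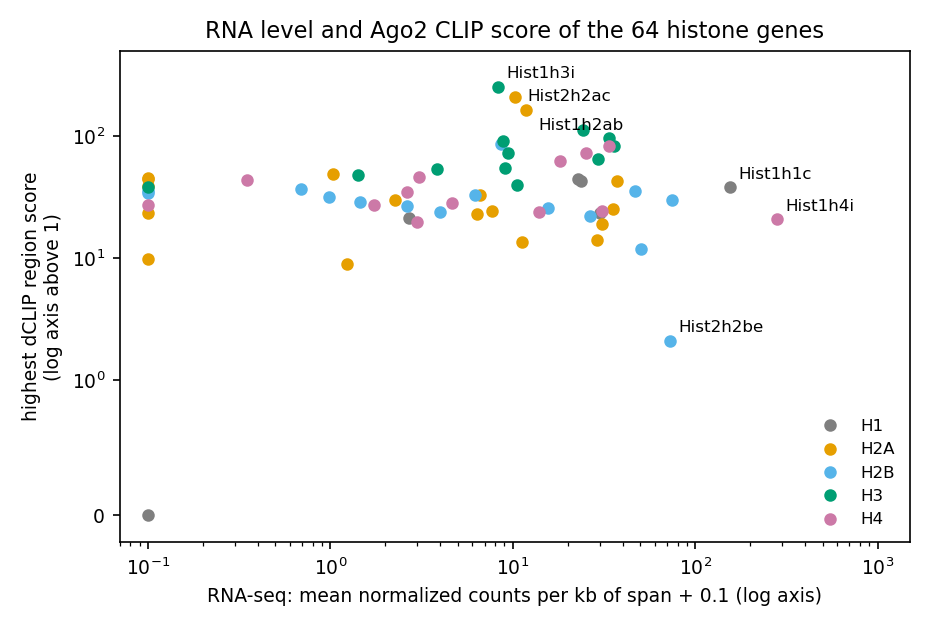
Mean RNA-seq level of each of the 64 histone genes in normalized counts per kb of span plus 0.1 (logarithmic horizontal axis) and the highest score of its Ago2 regions (vertical axis, logarithmic above 1), coloured by type. Hist1h3i (253.1) and Hist2h2ac (210.6) have the highest scores at low RNA levels, while Hist2h2be has a score of 2.1.

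The 8 highest scores belonged to 6 genes, 4 of them H3 genes. Hist1h3i held 3 of them, with 253.1 near its start (chromosome 13, 21783300 to 21783394), 127.3 in the middle of the gene and 93.4 at its end. Hist2h2ac followed with 210.6 (chromosome 3, 96220805 to 96220884) and Hist1h2ab with 164.8 (chromosome 13, 23751090 to 23751139), both at the gene start. Hist1h3g (112.6), Hist1h3a (95.7) and Hist1h3h (91.2) completed the 8. The median over genes of the highest score was 68.5 for H3 and 27.6 for H2A, 28.2 for H4, 30 for H2B and 30.6 for H1, values that carry no error between libraries. Positions follow the deposited file, which does not say whether its positions count from 0 or 1, so they hold to within 1 nt.

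Ago2 bins began close to the gene start and, in many genes, ran on past the annotated 3′ end. For the 58 genes whose RefSeq model is at most 1000 nt long, 0 genes were covered 100 nt before the RefSeq start, 36 at the start and 51 at 100 nt after it. At the RefSeq 3′ end 57 of 58 genes were covered, and 49 were covered 5 nt past it, 41 at 50 nt, 33 at 100 nt and 28 at 300 nt. Bins past the end can belong to a neighbouring gene on the same strand or to the longer gene models described above, and the files do not separate the possibilities. The median share of the annotated span covered by bins was 94.5% over the 64 genes.

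**Figure D5:**
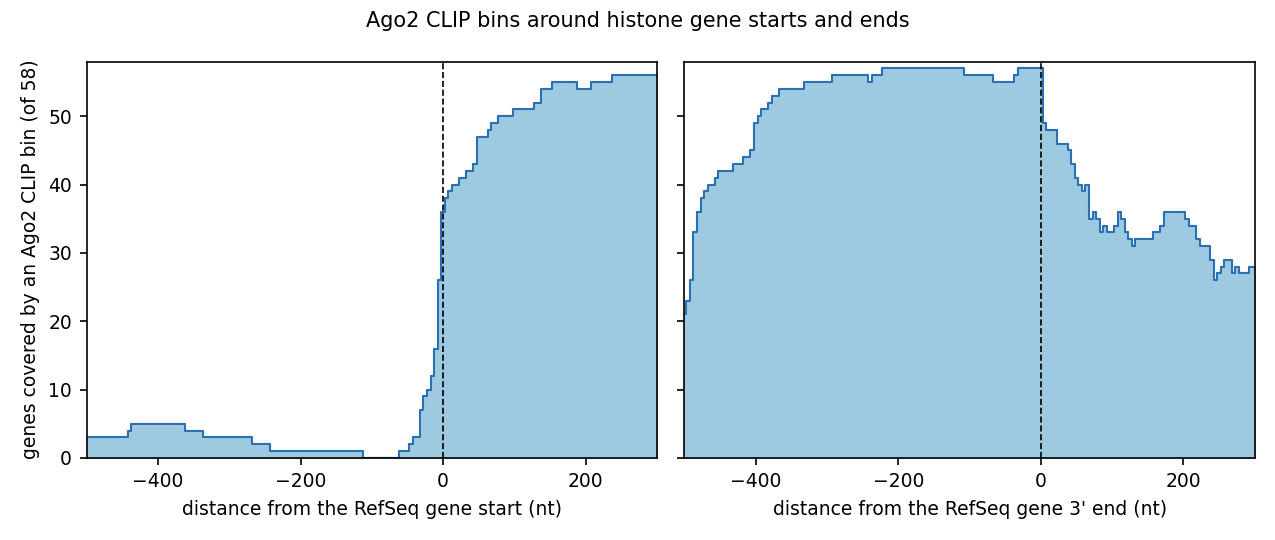
Number of histone genes, of the 58 with a RefSeq length of at most 1000 nt, that are covered by a same-strand Ago2 CLIP bin (vertical axis) at each distance in nt from the RefSeq start (left) and 3′ end (right). Coverage goes from 0 genes at 100 nt before the start to 36 at the start, and from 57 genes at the 3′ end to 41 at 50 nt past it.

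The dCLIP difference between the pooled conditions had the same sign in all the histone genes. The mean over a gene's bins was negative in 64 of 64, from -0.35 (Hist2h3b) to -0.03 (Hist1h1c), where 91.3% of protein-coding genes with a region were negative. The median was -0.17 for the histone genes and -0.05 for the other protein-coding genes, and -0.14 for the other genes with a mean under 10 in RNA-seq. Of the regions, 40.2% were in state 0 (31.4% of regions in all protein-coding genes) and 6.67% in state 2 (9.73%). These shares were nearly the same in the other protein-coding genes with a mean under 10, at 40.1% and 6.67%. At least 1 region in state 0 was present in 98.4% of the histone genes (54.5% of all protein-coding genes) and at least 1 in state 2 in 42.2% (34.2%). Hist1h4i, at a mean difference of -0.24, had 2 regions in state 0, 3 in state 1 and 0 in state 2.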

How the data were processed

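RNA-seq values came from 1 table of 8 libraries, in which Flox libraries are headed WT. The values used are a deposited signal: normalized counts, gene counts over 1 size factor in each library, kept to 1 decimal. Other columns hold stabilized log2 values, the authors' p-values, FDR, linear fold change as a ratio and log2 fold change, and the percent GC of each gene, per the file headers. Per the submitters' processing notes, cutadapt, Bowtie2, SAMtools, STAR, DESeq2 and DESeq were used, without versions or roles, and mm9 is named, although the deposited positions are those of GRCm38. The deposited dCLIP files hold a difference score and a state (other) for each bin of 5 nt, per the file headers, and a score per region. Their 4 columns of tags and mutations per condition name no genotype and were not used.

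Values stepped in whole reads: 100% came out whole within 0.1 read in each library. The main test was limma-trend (limma 3.58.1, R 4.3.3) on log2(value + 1), for genes with a mean of at least 10, Benjamini-Hochberg over all 13091, two-sided, threshold 0.05. It does not treat the values as counts. A fold change is a difference of mean log2(value + 1), which for low genes can differ from a ratio of means in either direction. edgeR (4.0.16) on the recovered reads called 9 genes; DESeq2 (1.42.0) and limma-voom were other alternatives. The scripts were tested on simulated data. Regions were given to genes they overlap on the same strand. Replicate numbers are shared by the labels of the groups, but same-numbered libraries did not deviate together (correlations of -0.0943, -0.0647, -0.0502 and 0.0027), so no block was used in the main test.

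The genes, lists, motifs and tests were chosen with earlier results of these data known. Named are, per type, the 3 genes highest per kb, genes past the threshold, the 4 tested genes of each direction with the smallest unadjusted p, Hist3h2a, Hist3h2ba, Hist2h2be, Hist1h1c and Hist4h4, up to 3 genes per other list by p, and the 8 CLIP regions of highest score; other genes in the text were added after their values were seen. Alternatives were TMM scaling, no filter, a mean of at least 50, a pseudocount of 10, the 3 count tests, a replicate block, leaving out each library, leaving out KO 1 and KO 3, a span and GC correction (natural splines, 4 degrees of freedom), and, for CLIP regions, at least 20 nt of width, a score of at least 5 and spans widened by 100 nt. Promoter sequences and gene models are RefSeq's (GRCm38.p6); all 64 genes were matched by their identifiers. The summed level of the B cell marker list is not reported here.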

Additional observations from a re-analysis of the deposited data

Results flagged for a closer look

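Of 54 groups of 4 libraries screened for a value far from the other 3 (the genes named by rule, the 5 type sums and the sum over all types), 5 held one, where chance gives about 1 in 20. Hist1h2ag was at 36.5 normalized counts in KO 2, against 11.4 to 12.7 in the other KO libraries. Hist1h2bc was at 210.8 in Flox 4 and Hist1h4b at 18 in Flox 1, each above the other Flox libraries. The H2B sum was 611.6 in Flox 4, above the other 3, and the H4 sum was 319.7 in Flox 3, below the other 3 but above every KO library.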

How the results depend on the processing

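Counts of calls depended on the test. DESeq2 called 213 genes against 9, and 8 to 17 were called with 1 library left out. Hist1h4i was the 1 histone gene called with DESeq2, with limma-voom and with the replicate block; with 1 library left out, 0 to 1 histone genes were called (1 without KO 2). The block, which raised the calls over all genes from 9 to 11 (0.084%), gave Hist1h4i an adjusted p of 0.022; numbers do not pair these libraries by the check above. At an unadjusted p under 0.05 in the main test, 5 of 26 histone genes were lower in KO and 0 higher. Of all genes tested, 7.39% were lower and 7.74% higher. The histone genes at that p numbered 2 with a mean of at least 50 (fewer genes tested), 3 with edgeR and 3 with limma-voom. They numbered 2 without KO 1 and KO 3, 2 after the span and GC correction and 1 to 5 with 1 library left out. The share of all genes is not given for these settings, so the numbers cannot be set against it. CLIP regions fell from 525 to 200 with a score of at least 5.

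The sign turned under some settings in genes that did not pass the test, and the cause was not tested. Hist3h2ba (-0.08) was 0.0585 with edgeR, 0.0562 with DESeq2, 0.27 without KO 1 and KO 3 and 0.11 after the span and GC correction. Hist3h2a (0.08) was -0.0013 with limma-voom and -0.14 without KO 1 and KO 3. Hist1h2ai (-0.11) was 0.0275 with edgeR, 0.28 without KO 1 and KO 3 and 0.11 after the correction. Hist1h2ak (-0.23) was 0.0242 with a pseudocount of 10 and 0.33 with edgeR. Hist1h2ag (0.01) was -0.0017 with TMM scaling and -0.0074 with limma-voom. Hist1h3e (-0.10) was 0.37 without KO 1 and KO 3 and 0.0625 after the correction, and Hist1h4b (-0.80) was 0.37 without KO 1 and KO 3. With 1 library left out, the range was -0.27 to 0.33 for Hist3h2ba, -0.0606 to 0.26 for Hist3h2a, -0.44 to 0.32 for Hist1h2ai, -0.41 to 0.48 for Hist1h2ak, -0.37 to 0.20 for Hist1h2ag, -0.0235 to 0.52 for Hist1h3g, -0.35 to 0.12 for Hist1h3e, -0.0352 to 0.34 for Hist1h1a, -0.09 to 0.37 for Hist1h4c and -0.24 to 0.31 for Hist1h2be; Hist1h4b stayed negative, from -1.26 to -0.16. At 788 to 2008 reads per library over all 64 genes, counting error is large for single genes.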
